A study of Mus musculus with 40 samples.

Results

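The 7 genes Havcr1, Lcn2, Spp1, Clu, Vcam1, C3 and Krt20, whose transcripts are known to rise in injured renal tubules, were read by name from the counts of kidneys and aortas of mice fed a high-fat diet (HFD) or a standard fat diet (SFD). They are 7 of 55382 genes in the kidney table and 7 of 55335 in the aorta table, and every one was found once in both. All 7 passed the filter on low counts in kidney, as did 15943 genes in total, while 4 of 7 passed it in aorta, where 15122 genes passed. The study used these mice to ask what EGFR of the endothelium does in diet-induced obesity, and the question here was whether 18 weeks of HFD changed tubular injury transcripts in either genotype.

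Endothelial deletion (EC-EGFR-KO) came from EGFR flox/flox mice on C57BL/6 crossed with B6.Cg-Tg(Tek-cre)1Ywa/J, whose Cre is driven by the Tie2 (Tek) promoter. That promoter is also active in haematopoietic cells. Controls (EC-EGFR-WT) carried the same Cre but no LoxP sites, so Cre is common to both genotypes. SFD, written SD in the labels, held 10% of its energy as fat and HFD held 60%, and HFD began at an age of 6 weeks after 7 days on a mixed diet. Each genotype and diet had 5 kidneys and 5 aortas, and the sex of the animals is not given in the sources used here.

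After injury, tubule cells lose parts of their transport programme and express surface receptors, secreted proteins and keratins that healthy tubules hold at low levels. Havcr1 encodes KIM-1, a phosphatidylserine receptor with which proximal tubule cells take up apoptotic cells. Lcn2 encodes NGAL, an iron-siderophore carrier, Spp1 encodes osteopontin, an integrin-binding phosphoprotein, and Clu encodes clusterin, an extracellular chaperone. Vcam1 encodes an adhesion molecule of activated endothelium that injured proximal tubule cells also express. C3 encodes the central component of complement, and Krt20 encodes a keratin of urothelial surface cells that appears in injured tubules.

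The 2 members that passed the adjusted p in at least 1 genotype with no overlap between the diets, C3 and Krt20, are shown with their promoters (RefSeq, GRCm38.p6, 250 bases before to 50 after the start). Capitals mark the letters TATAAA. C3 lies on the minus strand at chr17:57228087-57228386 and Krt20 on the minus strand at chr11:99438104-99438403.
C3: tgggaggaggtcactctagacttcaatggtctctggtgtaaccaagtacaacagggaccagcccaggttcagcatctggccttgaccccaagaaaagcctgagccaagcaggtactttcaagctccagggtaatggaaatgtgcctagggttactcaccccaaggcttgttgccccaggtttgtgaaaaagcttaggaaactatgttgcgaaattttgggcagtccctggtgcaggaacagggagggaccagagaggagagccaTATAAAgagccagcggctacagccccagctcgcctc
Krt20: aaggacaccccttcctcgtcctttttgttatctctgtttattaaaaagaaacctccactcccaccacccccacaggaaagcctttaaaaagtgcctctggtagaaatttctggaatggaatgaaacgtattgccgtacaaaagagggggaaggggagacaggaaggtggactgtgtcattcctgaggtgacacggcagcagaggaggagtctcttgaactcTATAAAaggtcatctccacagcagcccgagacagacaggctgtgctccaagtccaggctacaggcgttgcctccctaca
TATAAA lay 29 bases before the annotated start in Krt20 and 14 bases after it in C3, and 13.6% of all 32851 promoter windows held these letters on either strand. Windows were held for 5 of the 7 members, 8 windows in all. The AP-1 letters TGANTCA were found in 1 of them, as TGAATCA from base 261 to base 267 of the third Havcr1 window, against 7.81% of all windows. TATAAA also stood at bases 40 to 45 of the first Spp1 window, which overlaps no AP-1 match. The STAT letters TTCNNNGAA and the kappa B motif, which 8.30% and 4.51% of all windows held, were found in none of the 8. A match describes the letters of a window only.

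Between 19643033 and 48833447 counts per kidney library and between 17520161 and 36452741 per aorta library fell on genes. Expression is given in FPM, the study's unit, computed here as CPM (counts scaled to a common library size) with TMM-normalized library sizes. Kidney libraries a1 (KO HFD) and a12 (WT HFD) were nearly identical: the median chi-square over genes between them was 0.0242, where 0.455 stands for sampling noise alone and the next closest pair had 1.70. The same held for aorta libraries R-1 (WT SFD) and R-12 (KO SFD), with 0.0255 against 1.69 for the next pair. These libraries were also the deepest of their tissue. In kidney a1 had 48788716 and a12 48833447 counts, with a16 next at 31369285. In aorta R-1 had 36419598 and R-12 36452741 counts, with R-11 next at 23683293. Why they are alike and deep was not tested, and group means, SDs and ranges below include them. Each comparison was thus also fitted without these pairs. Without a1 and a12 the members called in kidney were those called with them, and without R-1 and R-12 none was called in aorta, as with them. Kidneys a8 and a9 (KO SFD) and a17 (WT SFD) had summed immediate-early transcripts of 2872, 2811 and 2651 FPM, where all other kidneys had 161 to 289 FPM. Kidney a18 (WT SFD) had summed endothelial markers of 165 FPM, against 288 to 461 FPM in the others, and the highest proximal tubule sum, 71303 FPM. Egfr itself did not separate the genotypes in whole kidney: KO against WT under SFD gave a log2 fold change of -0.09 (95% interval -0.45 to 0.27), and other renal cells also express it. Proximal tubule markers were present in every kidney. Of the 239 genes in the gene and marker lists below, 22 on chromosomes 8, 9 and X were listed at 0 in all 40 libraries, among them Cdh5 (endothelium), Tagln (smooth muscle), Cd3e (T cells), Icam1 (NF-kappa-B response), Itgb1 (osteopontin receptors) and Hsd11b2 (collecting duct). These 22 check nothing, and counts of genes tested leave them out.

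In kidneys of WT mice, HFD raised C3, to 2.83 times its level under SFD, and the other 6 members did not pass the test. Their log2 fold changes (HFD over SFD) lay between 0.26 for Clu and 1.25 for Krt20. In kidneys of KO mice, C3 rose 3.12-fold and Krt20, a transcript under 1.2 FPM in every kidney, rose 6.88-fold. A member counted as called with an adjusted p under 0.05 (edgeR quasi-likelihood test, Benjamini-Hochberg over all genes tested), a fold change over 1.5 and more than 5 FPM in at least 1 group. By this rule 1 of 7 members was called higher in WT, against 1.27% of all genes tested, and 1 of 7 in KO, against 1.23%. By the adjusted p alone 1 of 7 passed in WT (3.03% of all genes) and 2 of 7 in KO (3.16%). All 7 log2 fold changes were above 0 in both genotypes, where 49.9% of all genes were above 0 in WT and 49.8% in KO. The median over the members was 0.93 in WT and 0.75 in KO, beside -0.00027 and -0.00060 over all genes tested.

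**Figure D1:**
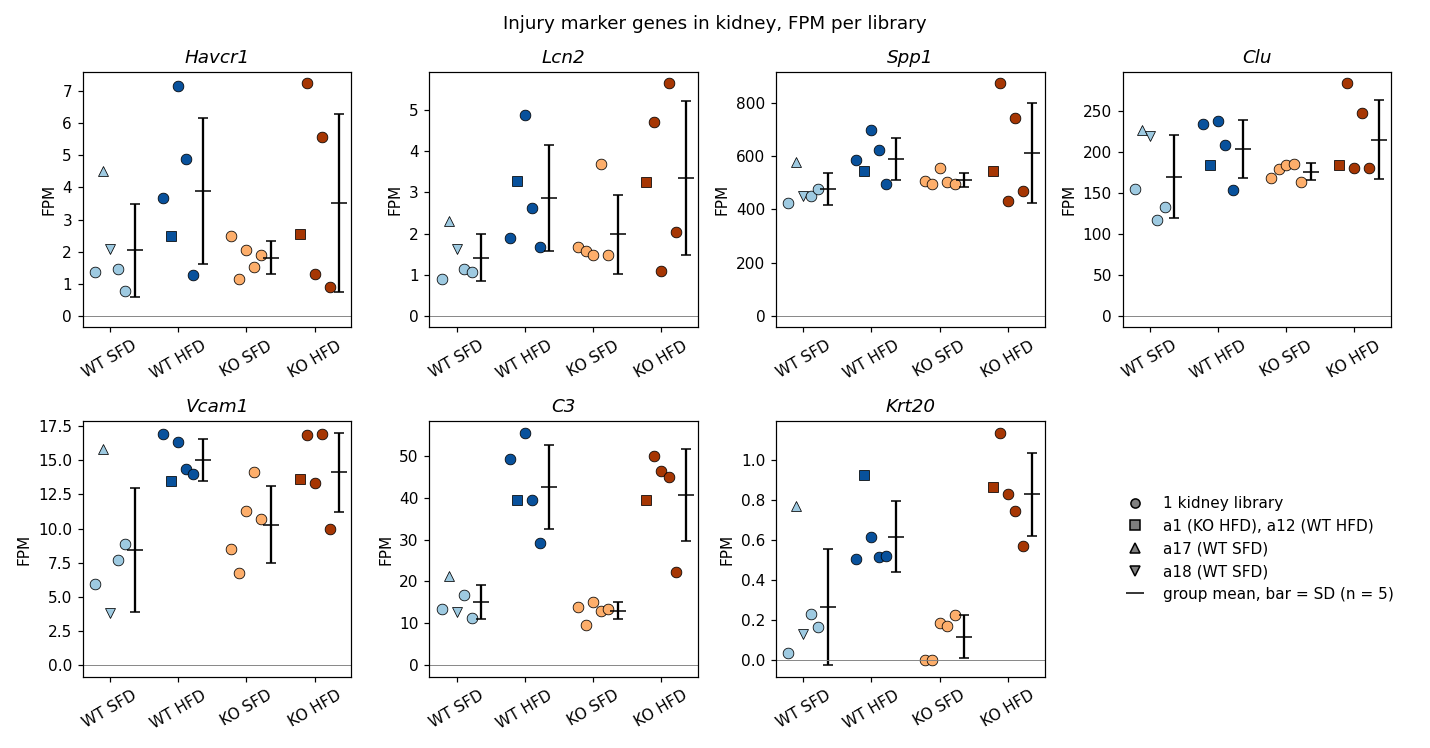
FPM (y axis, linear, from below 0 so that each bar of 1 SD is whole) of the 7 genes in every kidney library, by genotype and diet, with the group mean and SD (n = 5). The SFD and HFD libraries of C3 do not overlap in either genotype, and the WT SFD library a17 lies highest of its group for every gene.

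C3 (ENSMUSG00000024164, chromosome 17, 57203970 to 57228136, minus strand) had 11.2, 12.6, 13.4, 16.8 and 21.2 FPM in the WT SFD kidneys and 29.2, 39.5, 39.6, 49.2 and 55.6 FPM in the WT HFD kidneys. In KO it had 9.62, 12.9, 13.5, 13.98 and 15.1 FPM under SFD and 22.2, 39.5, 44.9, 46.4 and 49.96 FPM under HFD. The diets did not overlap in either genotype, which held for 6.64% of all genes, in either direction, in WT and for 7.81% in KO. Means were 15.04 ± 4.02 and 42.6 ± 10.1 FPM in WT and 13.04 ± 2.07 and 40.6 ± 10.97 FPM in KO (SFD and HFD, SD, n = 5). On the log2 scale, C3 rose by 1.502 in WT (standard error 0.21, adjusted p = 0.00017) and by 1.64 in KO (standard error 0.22, adjusted p = 7.09e-05). Leaving out each kidney in turn kept it between 1.39 and 1.66 in WT and between 1.55 and 1.79 in KO, and without a1 and a12 it was 1.53 and 1.65. In whole tissue, more cells of a type and more RNA per cell cannot be told apart. The summed macrophage markers (11 genes, all detected) ran from 113 to 199 FPM in WT SFD, 164 to 235 FPM in WT HFD, 137 to 185 FPM in KO SFD and 166 to 233 FPM in KO HFD. The ranges overlap in both genotypes. Of these markers, however, 10 of 11 had log2 fold changes above 0 in WT (median 0.74) and 9 of 11 in KO (median 0.46). Averaged over genotypes, 6 of 11 were called higher, against 1.67% of all genes. The part of macrophages in the C3 values was not tested.

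Vcam1 (ENSMUSG00000027962, chromosome 3, 116109949 to 116129688, minus strand) had 3.80, 5.92, 7.68, 8.89 and 15.8 FPM in WT SFD kidneys and 13.5, 13.98, 14.4, 16.4 and 16.9 FPM in WT HFD kidneys. Only a17, at 15.8 FPM, reached into the HFD range. The log2 fold change in WT was 0.84 (standard error 0.27, 95% interval 0.28 to 1.396, adjusted p = 0.0699 in edgeR), and DESeq2 gave 0.83 with an adjusted p of 0.0233. Without a17 it was 1.19 with an adjusted p of 0.0027 and Vcam1 was called, as it also was without a8, a9 and a17 together (1.19, adjusted p = 0.0022). Without a18, the kidney lowest in Vcam1 and in endothelial markers, it was 0.67 with an adjusted p of 0.125, and the adjusted p was highest, 0.174, without a16. Without a1 and a12 it was 0.87 with an adjusted p of 0.0834. In KO, Vcam1 had 6.73, 8.51, 10.7, 11.3 and 14.1 FPM under SFD and 9.97, 13.3, 13.6, 16.9 and 16.9 FPM under HFD. The diets overlapped there, and the log2 fold change was 0.46 (standard error 0.27, adjusted p = 0.367). The kidney highest under SFD in each genotype, a17 in WT and a9 in KO, is among the 3 with high immediate-early transcripts, and the part of these in the Vcam1 values was not tested. Endothelial marker sums, from 377 to 430.1 FPM in WT HFD, lay within the wider WT SFD range of 165 to 461 FPM. Of 9 endothelial markers tested, however, 8 had log2 fold changes above 0 in WT (median 0.29) and 8 in KO (median 0.13), and their part in the Vcam1 values was not tested.

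Krt20 (ENSMUSG00000035775, chromosome 11, 99428403 to 99438150, minus strand) was near the limit of detection. WT SFD kidneys had 0.0333, 0.131, 0.165, 0.228 and 0.773 FPM, or 1 to 18 counts, and KO SFD kidneys had 0, 0, 0.168, 0.186 and 0.224 FPM, or 0 to 5 counts. Under HFD, WT kidneys had 0.505, 0.518, 0.519, 0.616 and 0.927 FPM and KO kidneys had 0.569, 0.745, 0.832, 0.864 and 1.14 FPM. Every HFD kidney was thus above every SFD kidney in KO, and in WT only a17, at 0.773 FPM, lay among the HFD values. The log2 fold change in KO was 2.78 (standard error 0.63, 95% interval 1.47 to 4.09, adjusted p = 0.00858), between 2.45 and 3.15 with each kidney left out and 2.76 without a1 and a12. It was 3.39 in KO without a8, a9 and a17 (adjusted p = 0.0089, edgeR). In WT it was 1.25 (standard error 0.56, adjusted p = 0.216), and without a17 it was 2.16 with an adjusted p of 0.0205. Urothelium, which expresses Krt20, was read by its summed markers, which ran from 5.41 to 21.1 FPM in WT SFD, 3.04 to 9.71 FPM in WT HFD, 6.46 to 15.8 FPM in KO SFD and 3.37 to 13.9 FPM in KO HFD. The diets overlapped in both genotypes, 1 of 7 log2 fold changes of these markers was above 0 in each (medians -0.96 in WT and -0.45 in KO), and the part of urothelium in the Krt20 values was not tested. Of the other keratins, 7 of 9 were tested and all 7 log2 fold changes were below 0 in both genotypes, with 0 called by edgeR. With a8, a9 and a17 left out, 2 of the 7 were above 0 in KO.

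Havcr1 (ENSMUSG00000040405, chromosome 11, 46735080 to 46779578, plus strand) had 0.786, 1.36, 1.45, 2.099 and 4.51 FPM in WT SFD and 1.28, 2.48, 3.66, 4.88 and 7.16 FPM in WT HFD kidneys. In KO it had 1.16, 1.51, 1.88, 2.05 and 2.48 FPM under SFD and 0.902, 1.31, 2.55, 5.56 and 7.24 FPM under HFD. The diets overlapped in both genotypes, and the spread under HFD was wide, with kidneys of 1 group differing from 0.902 to 7.24 FPM in KO. Havcr1 had log2 fold changes of 0.93 in WT (95% interval -0.20 to 2.07, adjusted p = 0.368) and of 0.95 in KO (95% interval -0.21 to 2.098, adjusted p = 0.367). With 1 kidney left out they ran from 0.60 (without a13) to 1.45 (without a17) in WT and from 0.51 (without a2) to 1.19 (without a5) in KO, and passed in none of these fits.

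Of the secreted members, Lcn2 (ENSMUSG00000026822, chromosome 2, 32384633 to 32388252, minus strand) had 0.899, 1.08, 1.14, 1.62 and 2.32 FPM in WT SFD and 1.68, 1.89, 2.63, 3.29 and 4.89 FPM in WT HFD. In KO it had 1.48, 1.49, 1.57, 1.67 and 3.70 FPM under SFD and 1.09, 2.04, 3.27, 4.71 and 5.65 FPM under HFD. The diets overlapped in both. In WT only the SFD kidney a17, at 2.32 FPM, reached into the HFD range. In KO the SFD kidney a9, at 3.70 FPM, did so, and the HFD kidney a3, at 1.09 FPM, lay below every SFD kidney. Lcn2 was 1.04 higher on the log2 scale in WT (standard error 0.41, adjusted p = 0.153) and 0.75 higher in KO (standard error 0.40, adjusted p = 0.316). With 1 kidney left out the values ran from 0.77 (without a13) to 1.29 (without a17) in WT and from 0.49 (without a4) to 1.11 (without a9) in KO, with none passing.

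Spp1 (ENSMUSG00000029304, chromosome 5, 104435118 to 104441050, plus strand) was abundant in every kidney, with 422, 451, 451, 476 and 578 FPM in WT SFD and 493, 545, 586, 624 and 699 FPM in WT HFD. In KO it had 494, 497, 501, 506 and 555 FPM under SFD and 433, 469.8, 543, 741 and 872 FPM under HFD. KO HFD kidneys lay both below and above all KO SFD kidneys, and their SD was 187.9 FPM against 25.1 FPM under SFD. Spp1 was 0.31 higher on the log2 scale in WT (95% interval -0.01 to 0.63, adjusted p = 0.269) and 0.26 higher in KO (95% interval -0.06 to 0.58, adjusted p = 0.365). With 1 kidney left out it ran from 0.24 (without a13) to 0.39 (without a17) in WT and from 0.098 (without a2) to 0.37 (without a3) in KO, and did not pass.

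Clu (ENSMUSG00000022037, chromosome 14, 65968483 to 65981547, plus strand) had 117, 133, 155, 220.1 and 227 FPM in WT SFD and 154, 184, 208, 234 and 238 FPM in WT HFD. In KO it had 164, 168, 179, 184 and 186 FPM under SFD and 180.1, 180.4, 184, 249 and 284 FPM under HFD. The diets overlapped, and log2 fold changes were 0.26 in WT (95% interval -0.10 to 0.62, adjusted p = 0.448) and 0.29 in KO (95% interval -0.08 to 0.65, adjusted p = 0.388). They ran from 0.15 (without a19) to 0.38 (without a17) in WT and from 0.17 (without a2) to 0.36 (without a3) in KO with 1 kidney left out, and did not pass.

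Per length of exons, the members covered a wide range of levels in WT SFD kidneys. Spp1 was highest at 288.6 ± 36.6 FPM per kb, then Clu at 49.5 ± 14.7 and C3 at 2.92 ± 0.782 FPM per kb (SD, n = 5). Vcam1 at 0.949 ± 0.513, Havcr1 at 0.883 ± 0.630 and Lcn2 at 0.538 ± 0.219 FPM per kb followed and did not differ beyond their spread. Krt20 was lowest at 0.138 ± 0.151 FPM per kb. Under HFD C3 stood at 8.28 FPM per kb in WT and 7.89 FPM per kb in KO, still below Clu.

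Averaged over both genotypes, HFD raised C3 2.97-fold, Krt20 4.05-fold, Lcn2 by 0.89 on the log2 scale and Vcam1 1.57-fold, with the 20 kidneys in a single fit. C3 and Vcam1 were called, 2 of 7 against 1.67% of all genes, and the 4 named passed the adjusted p alone, 4 of 7 against 7.70% of all genes. Adjusted p-values (edgeR) were 5.06e-07 for C3, 0.00205 for Krt20, 0.0231 for Vcam1 and 0.0367 for Lcn2. For the other 3, the log2 fold changes were 0.94 for Havcr1 (standard error 0.39, adjusted p = 0.105), 0.29 for Spp1 (standard error 0.11, adjusted p = 0.0746) and 0.27 for Clu (standard error 0.12, adjusted p = 0.139). All 7 unadjusted p-values were under 0.05, where 14.5% of all genes were higher at that level. Without a1 and a12, Lcn2 no longer passed (0.87, adjusted p = 0.0706), and it passed in 8 of 20 fits with 1 kidney left out, while C3 and Krt20 passed in 20 of 20. Without a18 the value of Vcam1 fell to 0.57 on the log2 scale, under the fold threshold, with an adjusted p of 0.0211. Of 20 such fits, Havcr1 passed in 1, without a17 (1.20, adjusted p = 0.0354), and Spp1 in 3, without a3 (0.34, adjusted p = 0.0215), a5 (0.33, adjusted p = 0.0419) or a17 (0.33, adjusted p = 0.0454). Without a1 and a12, Spp1 was 0.32 (adjusted p = 0.0704), Clu 0.32 (adjusted p = 0.121) and Vcam1 0.67 (adjusted p = 0.0348). The averaged log2 fold change of Krt20 was 2.02 with all kidneys and 2.77 without a8, a9 and a17 (adjusted p = 0.00038, edgeR).

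**Figure D2:**
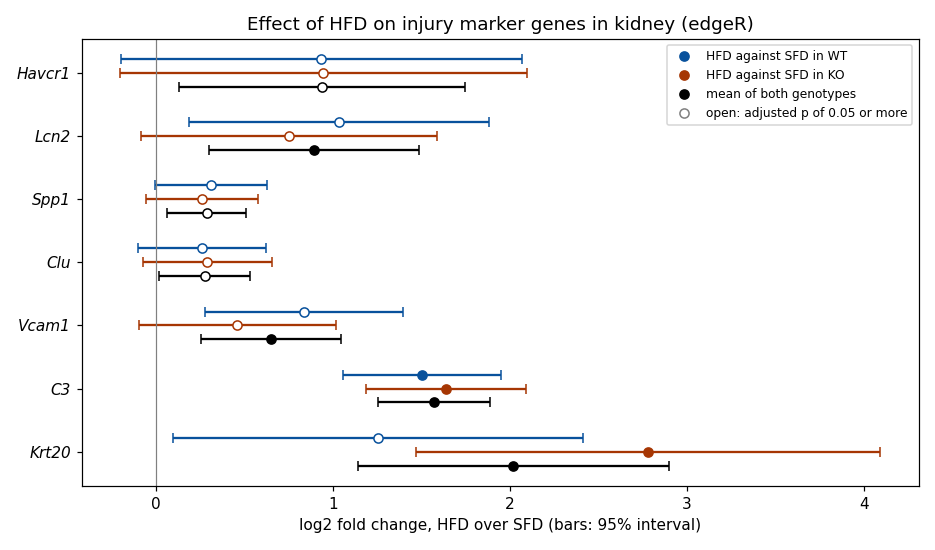
Log2 fold change of HFD over SFD (x axis) for the 7 genes in WT kidneys, in KO kidneys and averaged over both, with 95% intervals from the edgeR fit and filled points where the adjusted p was under 0.05. All estimates lie above 0, and the intervals of C3 lie above 0 in both genotypes while those of Havcr1, Spp1 and Clu include 0 in each genotype.

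Deletion of EGFR by Tek-cre gave no difference in these 7 transcripts that passed a test. The difference of the HFD effect between genotypes (KO minus WT, log2) was 0.14 for C3 (95% interval -0.49 to 0.76), -0.38 for Vcam1 (standard error 0.38) and 1.53 for Krt20 (95% interval -0.26 to 3.31, unadjusted p = 0.0898). With edgeR 0 of 7 members and 0 of 15943 genes (0%) had an adjusted p under 0.05 for that difference, 0 members and 285 genes (1.79%) had an unadjusted p under 0.05, and DESeq2 gave 0. For KO against WT under SFD, 0 of 7 members and 0% of all genes passed in edgeR, 426 genes (2.67%) were under 0.05 unadjusted, none of them a member, and DESeq2 gave 0. Under HFD the counts were again 0 of 7 and 0%, with 546 genes (3.42%) and no member unadjusted and 0 by DESeq2, and C3 differed by -0.07 (95% interval -0.50 to 0.36). These HFD groups hold the near-identical a1 and a12 on opposite sides. Without them C3 differed by -0.09 (95% interval -0.59 to 0.42), Vcam1 by -0.11 (-0.76 to 0.53), Lcn2 by 0.28 (-0.68 to 1.24), Havcr1 by -0.18 (-1.46 to 1.09) and Krt20 by 0.60 (-0.61 to 1.80). Spp1 differed by 0.07 (-0.29 to 0.43) and Clu by 0.10 (-0.32 to 0.51) in that fit, and with 1 HFD kidney left out the interval of C3 reached as low as -0.61, without a2. Krt20 passed for HFD in KO and not in WT, but the test of that difference, given above, did not pass. On the log2 scale that difference ran from 0.63 (without a17) to 1.89 (without a10) with 1 kidney left out.

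The spread of the members between kidneys of a group was compared pair by pair. Deviations of log2 FPM from the group means were compared over 19 points, with a1 and a12 averaged into a single point, for 21 pairs of members. All 21 Pearson r were above 0, from 0.23 to 0.87 with a median of 0.53. Of the pairs, 13 had an adjusted permutation p under 0.05 (100000 resamples, two-sided, residuals taken as exchangeable). The spread differed between groups, as for Spp1 with an SD of 187.9 FPM in KO HFD and 25.1 FPM in KO SFD. The permutations did not take this into account. As background, 48.6% of the r between a member and each of the other 15936 genes tested were above 0, with a median of -0.013, and 6.43% were at or above 0.49, the lowest r of the 13 pairs. For single members that share ran from 3.96% for Havcr1 to 13.2% for Vcam1. The injury receptor and osteopontin were closest: Havcr1 and Spp1 had r = 0.87 and Spearman's rho = 0.82 (permutation p = 1e-05, the smallest the resamples can give, adjusted p = 0.00021), and r = 0.85 without the 2 points farthest from the median. Havcr1 and Clu had r = 0.80 (rho = 0.85, adjusted permutation p = 0.00035), and r = 0.76 without the 2 farthest. Havcr1 and C3 had r = 0.78 (rho = 0.70, adjusted permutation p = 0.00035), and 0.66 without them. Lcn2 and Spp1 had r = 0.77 (rho = 0.65, adjusted permutation p = 0.00084), and 0.83 without them. Vcam1 and Krt20 had r = 0.75 (rho = 0.72, adjusted permutation p = 0.00113), which fell to 0.56 with an adjusted p of 0.06 without a8, a9 and a17. Clu and Vcam1 were least alike, at r = 0.23. The r of this pair was -0.066 without a8, a9 and a17, ran from -0.0081 (without a17) to 0.55 (without a18) with 1 point left out, and was 0.80 over the 9 HFD points and 0.048 over the 10 SFD points. For Havcr1 and Spp1 the r was 0.95 over the 9 HFD points and 0.65 over the 10 SFD points. Without a8, a9 and a17, 7 pairs passed, and with 1 point left out 10 (without a5) to 16 (without a18) pairs passed. Points of 1 kidney share a library, its depth and its cell content, whose part was not tested.

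**Figure D3:**
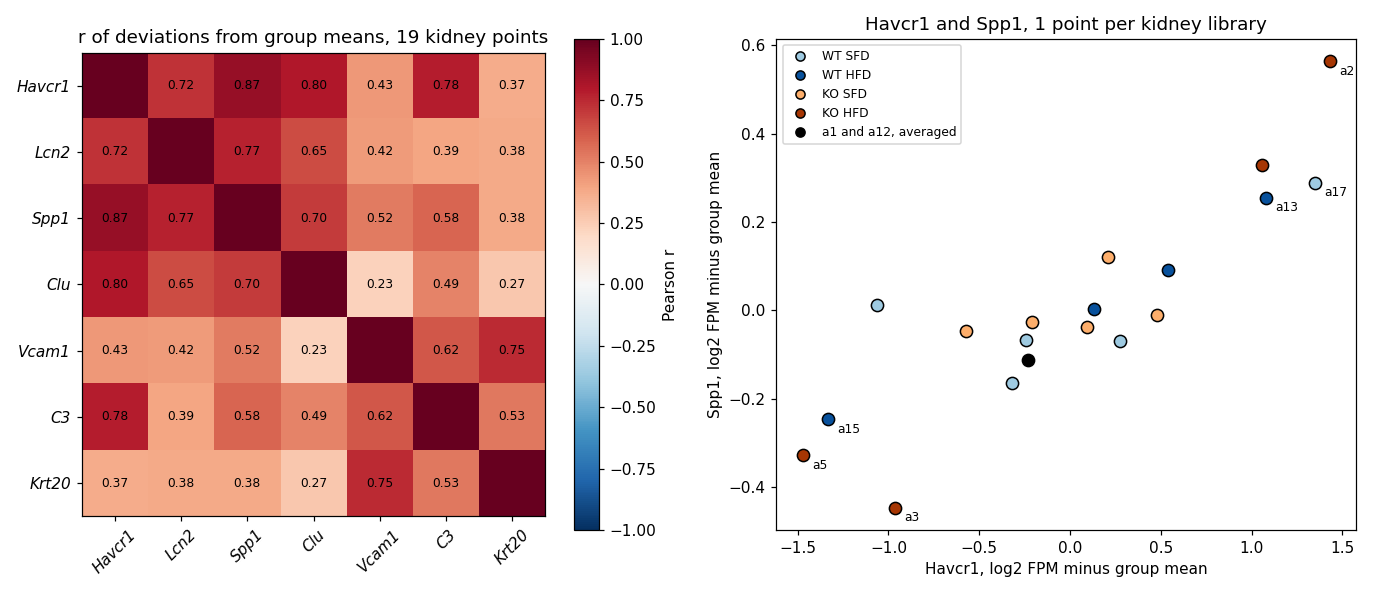
Left, Pearson r between the within-group deviations of log2 FPM for the 21 pairs of genes over 19 kidney points. Right, deviations of Havcr1 (x axis) against Spp1 (y axis), coloured by group, where r is 0.87.

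The genes whose deviations were most like each member over the same 19 points are given as a description. Lad1 (r = 0.88), Spp1 (0.87) and Rcc2 (0.87) were most like Havcr1. Nacad (0.87), Trpm4 (0.86) and Isyna1 (0.86) were most like Lcn2, and Cers4 (0.90), Cpxm1 (0.89) and Havcr1 (0.87) most like Spp1. Klk1 (0.87), the tissue kallikrein of the connecting tubule, and Cd9 (0.87) were among those most like Clu. For Vcam1 they were Tnfrsf1b (0.96), a TNF receptor, Sparc (0.93) and Atp8b2 (0.92). Vim (0.83), the intermediate filament vimentin, Scarb1 (0.82) and Dpt (0.81) were most like C3, and Slc15a3 (0.89), Gpr171 (0.85) and Ifngr1 (0.82), the interferon-gamma receptor, most like Krt20. Of these genes none but Cd9 (0.32, adjusted p = 0.0477, WT) and Dpt (1.16, adjusted p = 0.0414, KO) had an adjusted p under 0.05 for HFD (edgeR), and neither met the fold and FPM thresholds together.

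Other complement genes changed under HFD as well. Of 25 tested, HFD raised 5 and lowered 1 by the rule for calls in WT, and raised 2 and lowered 1 in KO, where the rule called 1.27% of all genes tested higher and 0.909% lower in WT, and 1.23% higher and 0.928% lower in KO, with a median log2 fold change of 0.51 in WT and 0.41 in KO. C1ra, a protease of the classical pathway, rose by 0.86 in WT (12.3 to 22.3 FPM) and by 0.74 in KO (13.8 to 23.1 FPM). C4b, a classical pathway component, rose by 0.87 and 0.94 on the log2 scale. C1qc, a C1q chain that macrophages make, rose by 0.81 in WT and was 0.54 in KO (adjusted p = 0.127). Cd55, which speeds the decay of the C3 convertase, fell by 0.68 in WT, from 19.6 to 12.2 FPM, and by 0.67 in KO, from 18.8 to 11.9 FPM. Without a8, a9 and a17 the calls in KO of C4b (0.85, adjusted p = 0.1201) and Cd55 (-0.58, under the fold threshold) were lost.

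Of 34 other genes known to rise in injured or repairing tubules, 29 were tested. In WT 4 were called higher, against 1.27% of all genes tested. In KO 1 was called higher, against 1.23%, and 1 lower, against 0.928%. Averaged over genotypes, 3 were called higher, Fgb, Fgg and Cp, against 1.67% of all genes. Called lower were 3, Itgb6 (-0.68), Cxcl1 and Gdf15 (-1.999, adjusted p = 0.0224 in edgeR), against 1.19% of all genes. The median change of the 29 genes was 0.05 on the log2 scale in WT and 0.12 in KO. Fgg, a fibrinogen chain, rose by 1.34 in WT (8.11 to 20.5 FPM) and by 1.39 in KO (8.78 to 23.1 FPM). Fgb, another fibrinogen chain, rose by 2.69 in WT and was 1.72 in KO (adjusted p = 0.0871). Cp, ceruloplasmin, rose by 1.05 and Sox4, a transcription factor, by 0.60 in WT. Itgb6, the beta chain of an integrin, fell by 0.74 in KO. Without a8, a9 and a17 neither Sox4 in WT (0.59, adjusted p = 0.0655) nor Itgb6 in KO (-0.67, adjusted p = 0.192) passed, and the medians were 0.26 in WT and 0.33 in KO. Averaged, 4 were then called higher, with Anxa1 added (0.64, adjusted p = 0.0163), and only Itgb6 lower, Gdf15 being -0.14 (adjusted p = 0.643) and Cxcl1 0.33. Sox9, a transcription factor of regenerating tubule cells, had 0.404 and 3.40 FPM under SFD and HFD in WT and 0.457 and 3.07 FPM in KO. Its log2 fold changes were 3.09 (adjusted p = 5.44e-05) and 2.74 (adjusted p = 0.000181), but it stayed under 5 FPM and was picked out after its values had been seen.

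**Figure D4:**
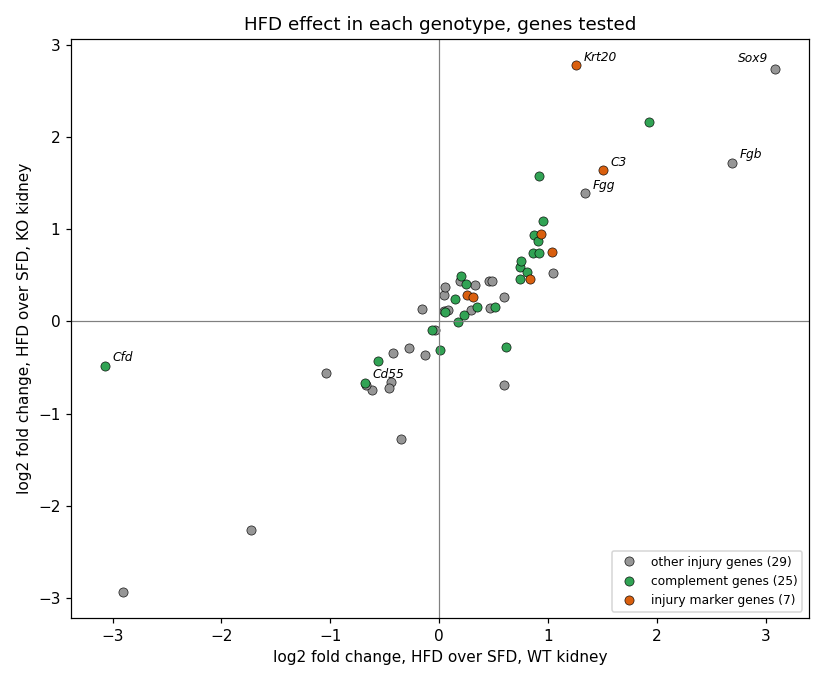
Log2 fold change of HFD over SFD in WT kidneys (x axis) and KO kidneys (y axis) for the 7 injury marker genes, 29 other injury genes and 25 complement genes tested. All 7 members lie to the right of and above 0, and Sox9 lies farthest to the right.

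Proximal tubule genes moved in both directions. Of 18 tested, 2 were called higher and 2 lower in WT, against 1.27% and 0.909% of all genes. In KO 4 were called higher, against 1.23%. Gatm, which makes the creatine precursor, rose by 0.87 in WT and 1.15 in KO, and Slc5a2, the glucose transporter SGLT2, by 0.81 and 0.85. In KO, Slc22a8, an organic anion transporter, rose by 0.68 and Pck1, of gluconeogenesis, by 0.59. In WT, Slc22a12, the urate transporter, fell by 0.60 and Kap, an abundant androgen-regulated transcript, fell by 0.80. KO kidneys had 23907 to 30679 FPM of Kap under SFD and 14383 to 21711 FPM under HFD, without overlap, but Kap was not called there. The summed proximal tubule transcripts ran from 44575 to 71303 FPM in WT SFD, 36068 to 45531 FPM in WT HFD, 50266 to 54016 FPM in KO SFD and 40891 to 48064 FPM in KO HFD, with no overlap between the diets in KO. Kap alone gave 32.5% to 59.4% of this sum in a kidney. Without Kap the sums ran from 24353 to 28931 FPM in WT SFD, 24345 to 27687 FPM in WT HFD, 22204 to 27685 FPM in KO SFD and 25045 to 27108 FPM in KO HFD, so the diets overlapped in both genotypes. Of the 18 genes 9 were above 0 in each genotype, with medians of 0.0025 in WT and 0.07 in KO. Without a8, a9 and a17 the calls of Slc22a12 in WT (-0.58, under the fold threshold) and Pck1 in KO (0.74, adjusted p = 0.0506) were lost. The part of proximal tubule content in the members' values was not tested.

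Partners of the members gave few calls. Of 11 tested receptors and partners of osteopontin and VCAM1, 0 were called by edgeR in either genotype or averaged. Their log2 fold changes were above 0 in 11 of 11 in WT (median 0.37), 9 of 11 in KO (median 0.10) and 11 of 11 averaged (median 0.24), and the smallest p belonged to Itgb3, the beta chain of the vitronectin receptor, at 0.49 in WT (adjusted p = 0.231) and 0.95 in KO (adjusted p = 0.0127, under 5 FPM). Of 6 receptors and carriers for lipocalin-2 and clusterin, 0 were called, and Dab2, an endocytic adaptor, was 0.29 in WT (adjusted p = 0.0579) and 0.38 in KO (adjusted p = 0.0117, under the fold threshold). Of 17 NF-kappa-B response genes, 0 were called in either genotype, and 5 were above 0 in WT (median -0.12) and 4 in KO (median -0.69). Averaged over genotypes, 2 were called lower, against 1.19% of all genes, Cxcl1 (-2.92, adjusted p = 0.0284) and Il1b (-3.05, adjusted p = 0.0307). The summed list was 444 FPM in a17, 485 FPM in a9 and 278 FPM in a8, and 130 to 206 FPM in all other kidneys. Without these 3 SFD kidneys the direction turned: 15 of 16 genes tested were above 0 averaged (median 0.26), with 0 called lower, Cxcl1 at 0.33 (adjusted p = 0.463) and Il1b at 0.62 (adjusted p = 0.0278, under 5 FPM), and 1, Cxcl10, called higher (0.65, adjusted p = 0.0441). The smallest p belonged to Sele, E-selectin, in WT (2.30, adjusted p = 0.0779), against the direction of most of the list, and to Il1b in KO (-3.30, adjusted p = 0.165). Among keratins the smallest p belonged to Krt19 in WT (-1.04, adjusted p = 0.0936) and Krt7 in KO (-0.29, adjusted p = 0.197), and among 7 urothelial markers to Upk1a in WT (-0.96, adjusted p = 0.183) and Upk3b in KO (-0.83, adjusted p = 0.373).

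Markers of other cell types were read beside the members. Of 11 macrophage markers, 3 were called higher in WT (1.27% of all genes), C1qc, C1qb and Lyz2 (lysozyme, 0.71), and 0 in KO (1.23%). There 9 of 11 were above 0, with a median log2 fold change of 0.46, while Csf1r, which had the smallest p, was -0.34 (adjusted p = 0.0533). Averaged over genotypes 6 of 11 were called higher (median 0.67), against 1.67% of all genes. The counts called higher without a8, a9 and a17 were 6 in WT, 0 in KO and 7 averaged. Of 7 adipocyte markers, Lep, leptin, was called in KO, from 0.199 to 16.2 FPM, against 1.23% of all genes called higher. In WT 0 were called, and Cfd was -3.07 (adjusted p = 0.0903 in edgeR). Lep had 0 to 15 counts in KO SFD kidneys, 3 of them at 0, and 5 to 1112 counts in KO HFD kidneys. Without a8, a9 and a17 its KO SFD group held only the 3 kidneys at 0, so that the fitted log2 fold change went from 6.32 to 11.75, a value that depends on the prior count, with an adjusted p of 0.0506. Adipocyte sums ran from 36.8 to 219 FPM in WT SFD, 62.4 to 153 FPM in WT HFD, 34.6 to 93.1 FPM in KO SFD and 51.0 to 237 FPM in KO HFD. Fabp4 weighed most in these sums, with 37266 counts over all kidneys, where Lep, the next, had 3125. Log2 fold changes of the adipocyte markers were above 0 in 2 of 7 in WT (median -0.36) and in 6 of 7 in KO (median 2.34). Averaged, 6 of 7 were above 0 (median 0.78). Pvalb, parvalbumin of the distal tubule, rose by 1.27 in WT and 1.63 in KO, and Slc12a1, the thick limb cotransporter NKCC2, fell by 0.62 in KO, which did not pass without a8, a9 and a17 (-0.59, adjusted p = 0.07601). Called in neither genotype (edgeR) were markers of fibroblasts, collecting duct, podocytes, neutrophils, lymphoid cells, endothelium and smooth muscle, the immediate-early genes and the clock genes. Averaged over genotypes, however, 7 of 12 immediate-early genes were called lower (median -2.50), against 1.19% of all genes. All 12 were below 0 in both genotypes. Of 8 fibroblast genes 1, Col3a1, was called higher averaged (0.71, adjusted p = 0.0394 in edgeR), against 1.67% of all genes. The high immediate-early sums of a8, a9 and a17 lie in the SFD groups, and without them 0 immediate-early genes were called lower and 11 of 12 were above 0 averaged (median 0.32), while in WT Nr4a1 went from -2.61 (adjusted p = 0.305) to 1.24 (adjusted p = 0.0416) and was called higher. Fibroblast markers were above 0 in 8 of 8 in WT (median 0.53) and 7 of 8 in KO (median 0.32). By the adjusted p alone 1 passed in WT and 2 in KO, against 3.03% and 3.16% of all genes higher. Without those 3 kidneys Col3a1 was 0.77 (adjusted p = 0.0506) and Col1a1 was called higher (0.65, adjusted p = 0.0266) averaged, while in WT Col1a1 (0.98, adjusted p = 0.0262) and Pdgfrb (0.599, adjusted p = 0.0217) were called higher. The 3 neutrophil markers tested were below 0 in both genotypes (medians -1.40 in WT and -1.73 in KO), and without those kidneys the medians were 0.26 and 0.72. The podocyte list held Pax8, which is not specific to podocytes. The part of adipocytes, fibroblasts, endothelium and neutrophils in the members' values was not tested. The smallest p in these lists belonged to Lum (1.16 in WT and 1.56 in KO, under 5 FPM), Aqp3 (-0.28 and -0.14), Pax8 (-0.40 and -0.45, under the fold threshold), S100a8 in WT (-1.68), S100a9 in KO (-1.94), Ptprc in WT (0.46), Cd79b in KO (0.26), Tie1 in WT (0.33), Egfl7 in KO (0.14), Des in WT (0.19), Smtn in KO (-0.26), Btg2 in WT (-2.39), Fosb in KO (-4.78), Nr1d1 in WT (-0.34) and Per1 in KO (-1.78).

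In aorta, the same genes showed another order and no called change. Per length of exons in WT SFD aortas, Clu stood at 366 FPM per kb, C3 at 66.5, Vcam1 at 8.31 and Spp1, the highest in kidney, at 0.746 FPM per kb. Havcr1 had 1 count in 20 aortas together, Krt20 0 to 3 counts per aorta and Lcn2 0 to 15, so these 3 were not tested. Clu ran from 921 to 1600.1 FPM, C3 from 179.8 to 619 FPM and Vcam1 from 36.9 to 151 FPM over the 20 aortas, with the groups overlapping. Log2 fold changes under HFD in WT and KO aortas were 0.02 and 0.08 for Clu, -0.11 and 0.22 for C3 and 0.30 and 0.15 for Vcam1.

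Spp1 in aorta had 0.529, 1.10, 1.21, 1.36 and 1.95 FPM in WT SFD and 0.761, 1.61, 1.87, 2.03 and 2.18 FPM in WT HFD. In KO it had 0.465, 0.987, 1.24, 1.24 and 1.70 FPM under SFD and 1.36, 1.71, 2.62, 3.15 and 6.50 FPM under HFD. All but the lowest KO HFD aorta were above every KO SFD aorta, and the highest, R-16, also had the highest summed lymphoid markers, 130 FPM, and summed macrophage markers of 2553 FPM. The log2 fold change in KO was 1.44 (standard error 0.43, unadjusted p = 0.00317, adjusted p = 0.987 in edgeR). Without R-11 and R-16, both high in lymphoid markers, it was 0.75 (adjusted p = 0.996). With edgeR 0 of 4 members were called in any of the 6 aortic comparisons, against 0.00661% of genes for HFD in WT, 0% for HFD in KO and 0.0265% for HFD averaged. The KO comparisons and the difference of effects had 0% as well. Unadjusted, 1 member (Spp1) was under 0.05 for HFD in KO, against 4.56% of all genes, and for HFD averaged, against 6.70%. In HFD in WT it was 0 of 4, against 2.61%, and 0 also in the other 3 comparisons, and DESeq2 passed 0 of the members in each.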

How the data were processed

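RNA of 20 kidneys and 20 aortas was sequenced, and the authors deposited raw counts per gene without normalization or filtering. The genome was GRCm38/mm10 and the counter featureCounts. The submitters' processing notes name HISAT2 2.1.0 and the study's methods TopHat2 for mapping. The strand setting, the handling of multi-mapped reads, and whether fragments or reads were counted are not given in the sources used here.

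The labels' genotype, diet and tissue gave the groups. Nothing in the labels says more of the replicates than that they are separate samples, so p-values measure the spread between these samples. Each tissue was fitted as 20 libraries in 4 groups with edgeR 4.0.16 (R 4.3.3, limma 3.58.1): TMM, filterByExpr by group, robust quasi-likelihood test, Benjamini-Hochberg adjustment over all genes tested. HFD calls needed an adjusted p under 0.05, more than a 1.5-fold change and over 5 FPM in at least 1 group mean, and genotype and interaction calls the adjusted p alone. FPM are CPM of the deposited counts with TMM-normalized library sizes. Correlations used log2 FPM with a prior count of 2. Intervals are at 95%. The fit was tested on simulated data.

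The members and gene lists (other injury genes, complement, proximal tubule, partners, keratins, NF-kappa-B and cell markers) were chosen with earlier results of these data known. Genes named are the members and Egfr, from each list the called genes, at most 4 per list and genotype by smallest p, or the one with the smallest p, and the 3 genes most like each member; Sox9, C1qb, Gdf15, Anxa1, Nr4a1, Cxcl1, Cxcl10, Col1a1, Col3a1, Pdgfrb and genes cited as markers at 0 are named besides, after their values were seen. Not every gene that meets this rule is reported here. Alternatives were DESeq2 1.42.0, other filters, thresholds and normalization, separate fits of each pair of groups, and the removal of libraries; that of a8, a9 and a17 from the lists, of Kap from its sum, and intervals without libraries were added after the data were seen. Sequences are from RefSeq (GRCm38.p6), and gene positions and exon lengths from GENCODE annotation of GRCm38. Columns of per-sample values not used: 0.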

Additional observations from a re-analysis of the deposited data

Results flagged for a closer look

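In 4 of 49 groups of 5 libraries, the highest library stood farther from the next than Dixon's critical value of 0.71 of the group's range allows, where chance flags about 1 group in 20. In KO SFD kidneys, Lcn2 was 3.70 FPM in a9, with the next at 1.67 FPM. In the same group, Spp1 was 555 FPM in a8, with the next at 506 FPM. In WT SFD kidneys, Krt20 was 0.773 FPM in a17, with the next at 0.228 FPM. These 3 libraries are those with summed immediate-early transcripts of 2651 to 2872 FPM, and the part of this in the values was not tested. In WT HFD kidneys, Krt20 was 0.927 FPM in a12, with the next at 0.616 FPM, and a12 is the library nearly identical to a1 of the KO HFD group. For 0 of 7 members did a test of the HFD effect between genotypes pass in edgeR or DESeq2.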

How the results depend on the processing

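The counts of called members in kidney were 1 for HFD in WT, 1 for HFD in KO and 2 for HFD averaged. In WT the count was 2 under DESeq2 and 2 without a8, a9 and a17, and 1 to 2 with each kidney left out. It was 2 in KO and 4 for the average by the adjusted p alone, and 1 to 2 for the average with each kidney left out. Of 21 correlated pairs, 13 passed, 7 without a8, a9 and a17 and 10 to 16 with each point left out. C3 kept its direction and its call for HFD in WT, in KO and averaged under each alternative run, and no called value of a member changed sign.

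Uncalled values near 0 changed sign. In kidney the interaction of Havcr1 was -0.019 without a1 and a12 and -0.51 without a8, a9 and a17, that of Clu -0.039 without the latter, and KO against WT under SFD for Havcr1 0.37. In aorta, KO against WT under SFD for C3 was 0.012 with these groups alone and 0.089 without R-11 and R-16, that of Spp1 0.090 without R-11 and R-16, and HFD averaged for C3 -0.015 without R-1 and R-12. With each kidney left out, the interaction ran from -0.012 to 0.29 for C3, -0.090 to 0.14 for Clu, -0.49 to 0.36 for Havcr1, -0.55 to 0.071 for Lcn2 and -0.21 to 0.059 for Spp1. KO against WT under HFD ran from -0.17 to 0.085 for C3, -0.039 to 0.15 for Clu, -0.59 to 0.20 for Havcr1, -0.047 to 0.50 for Lcn2, -0.11 to 0.16 for Spp1 and -0.16 to 0.013 for Vcam1. Under SFD it ran from -0.058 to 0.18 for Clu and -0.37 to 0.35 for Havcr1. With each aorta left out, HFD in WT ran from -0.27 to 0.22 for C3 and -0.068 to 0.10 for Clu, HFD averaged from -0.037 to 0.22 for C3, KO under SFD from -0.17 to 0.32 for C3 and -0.32 to 0.092 for Spp1, KO under HFD from -0.17 to 0.0013 for Clu, and the interaction from -0.024 to 0.14 for Clu and -0.28 to 0.027 for Vcam1. Without a8, a9 and a17, an alternative chosen after seeing the data, the 2 NF-kappa-B and 7 immediate-early genes called lower for HFD averaged became 0 and 0, and each of these 9 turned above 0. The cause was not tested.

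No paired analysis was possible because replicate numbers are unique within a tissue. The same numbers recur in aorta and kidney, but for different genotypes and diets, so they link no animals. For example, R-1 is a WT SFD aorta and a1 a KO HFD kidney. The tissues were fitted separately and set side by side without a test. Depth limits Krt20 most, which had 0 to 44 counts per kidney.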
